A study of Mus musculus with 12 samples.

Results

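Of 10 genes known mainly from fat cells, Lep was the only one whose probe lay above background on all 6 arrays of regulatory T cells (Tregs) from perigonadal white adipose tissue (PGWAT), and it lay above background on none of the 6 spleen arrays. On some of the PGWAT arrays Lep lay close to background. Adipoq and Cidec were above background on some PGWAT arrays and on no spleen array, and most probes of the other members stayed at background everywhere. The members were Adipoq, Cfd, Retn, Plin1, Cidec, Lipe, Car3, Thrsp, Lep and Slc2a4, taken by gene symbol from the annotation of the array, with every probe that carried one of these symbols. That gave 13 probes for 9 genes out of 45281 probes on the array. No probe was listed under Cfd, the gene of the fat cell protease adipsin, which is therefore not analysed here.

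The RNA of Tregs was measured on 12 Illumina arrays with 1 colour, and all mice were C57BL/6 animals fed high fat food. The groups were PGWAT Tregs of Tbetflox Foxp3Cre mice (called PGWAT Tbet flox), PGWAT Tregs of Foxp3Cre mice (PGWAT control), spleen Tregs of Tbetflox Foxp3Cre mice (spleen Tbet flox) and spleen Tregs of Foxp3Cre mice (spleen control), with 3 arrays each. The Cre recombinase, marked with a yellow fluorescent protein, was made from the Foxp3 promoter in all 4 groups, so the floxed Tbet gene was targeted in cells that use Foxp3. The labels do not say whether replicates came from separate animals or pools, so a p-value here reflects the spread among these arrays, which may be technical.

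White fat cells store triglyceride in 1 large droplet, coat that droplet with proteins that control its breakdown, and release hormones into the blood. Leptin (Lep) and adiponectin (Adipoq) are their best known hormones, and resistin (Retn) is another in mice. Mature fat cells float when adipose tissue is digested, while Tregs are isolated from the remaining cells. In bulk samples, fewer cells of a type and less RNA per cell cannot be told apart.

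The sequences upstream of Lep, Adipoq and Cidec are shown because these 3 members rose above background on PGWAT arrays and on no spleen array. Each run gives the 250 bases before the annotated start of the gene, from RefSeq on build GRCm38.p6, for Lep at chr6:29059971-29060220 (plus strand), for Adipoq at chr16:23146286-23146535 (plus strand) and for Cidec at chr6:113435761-113436010 (minus strand). Capitals mark matches on either strand to 4 motifs. These were the core promoter motif TATAAA. The next was the promoter motif CCAAT. Another was AGGTCA, the half-site of nuclear receptors. The last was TTGCNNAA, bound by C/EBP factors of fat cell development.
Lep: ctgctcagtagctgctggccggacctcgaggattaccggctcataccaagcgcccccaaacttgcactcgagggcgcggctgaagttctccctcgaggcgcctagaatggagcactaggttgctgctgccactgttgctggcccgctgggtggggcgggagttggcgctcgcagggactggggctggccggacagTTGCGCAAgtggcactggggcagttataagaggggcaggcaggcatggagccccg
Adipoq: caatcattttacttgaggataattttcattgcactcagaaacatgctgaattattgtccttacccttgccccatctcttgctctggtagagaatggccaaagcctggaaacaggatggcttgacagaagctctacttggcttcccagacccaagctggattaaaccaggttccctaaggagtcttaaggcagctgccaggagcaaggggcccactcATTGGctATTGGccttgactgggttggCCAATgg
Cidec: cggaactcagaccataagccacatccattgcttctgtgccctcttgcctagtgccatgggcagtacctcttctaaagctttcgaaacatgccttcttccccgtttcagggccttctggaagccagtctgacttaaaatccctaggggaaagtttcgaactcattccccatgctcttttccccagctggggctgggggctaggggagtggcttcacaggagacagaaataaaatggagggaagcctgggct

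The Lep window held 1 stretch matching the C/EBP motif, which reads the same on both strands, and 9.57% of all 32817 promoter windows of this length held that motif. The Adipoq window held 3 CCAAT matches, a motif present in 33.8% of all windows. None of these 4 motifs was found in the Cidec window shown, and TATAAA and AGGTCA occur in 12.4% and 14.0% of all windows. Cidec had 2 listed windows, and only the one at its outermost annotated start is described here. A match is a run of letters and was not tested as a binding site. Promoter windows were listed for 8 of the 10 members.

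A detection p-value ranks the signal of a probe among the negative control probes of the same array, and a probe was taken as above background where it was under 0.05. By that rule, 25 of the 156 values of the 13 probes were above background (16%), against 40.2% of the values of all probes. Of the 39 values in each group, 7 were above background in PGWAT Tbet flox, 10 in PGWAT control, 4 in spleen Tbet flox and 4 in spleen control. Probes above background on at least 3 of the 12 arrays were kept for testing. This held for 6 of the 13 probes and for 50.4% of all probes on the array.

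**Figure D1:**
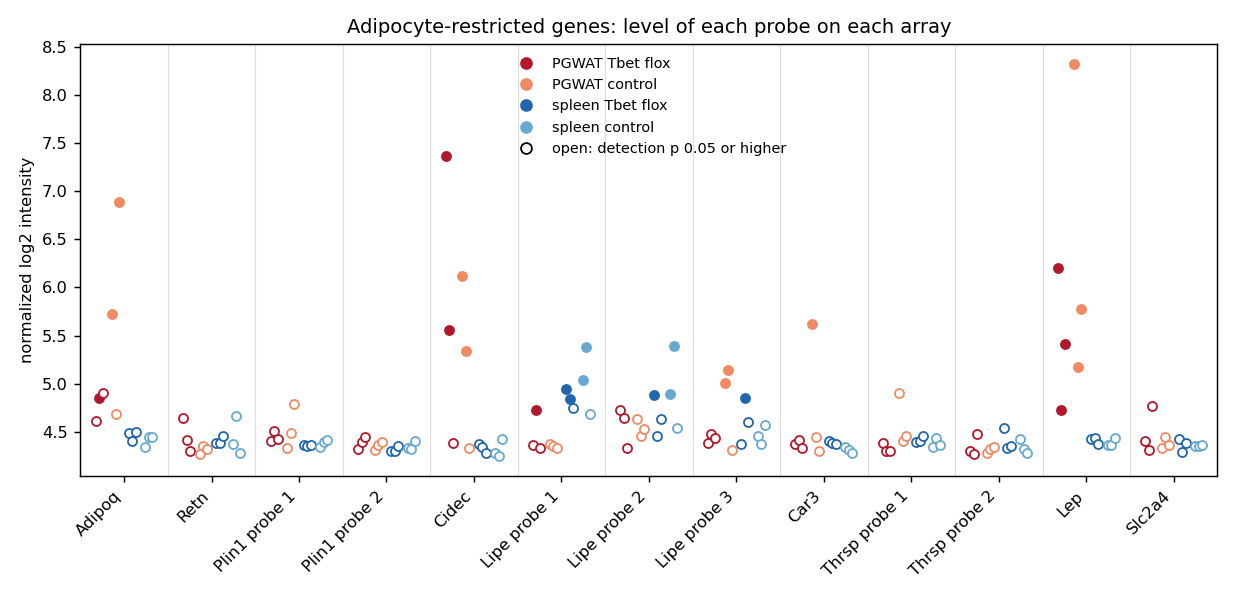
Normalized log2 intensity of each of the 13 probes on each of the 12 arrays, coloured by group, with filled points where the detection p-value was under 0.05 and open points elsewhere. Lep, Cidec and Adipoq have high points on PGWAT arrays only, Lipe probe 1 and Lipe probe 2 are highest on a spleen array, and Car3 has a single filled point.

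Lep encodes the hormone that signals the size of fat stores to the brain. Its probe (ILMN_2695964) had normalized log2 intensities of 6.20, 4.73 and 5.41 in PGWAT Tbet flox, 8.32, 5.17 and 5.77 in PGWAT control, 4.43, 4.44 and 4.37 in spleen Tbet flox, and 4.36, 4.36 and 4.44 in spleen control. Every PGWAT array lay above every spleen array, and PGWAT control 1 stood above all others. On the raw scale that array had a signal of 374.1, against a median of 93.79 over all its probes. Only 146 of all 45281 probes (0.322%) shared the pattern of Lep, above background on all 6 PGWAT arrays and on no spleen array. Its detection p-value was under 0.01 on 1 PGWAT Tbet flox and 2 PGWAT control arrays only, and 0.0449 on PGWAT Tbet flox 2.

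Adipoq encodes adiponectin, the most abundant hormone of fat cells. Its probe (ILMN_2738082) had log2 intensities of 4.61, 4.85 and 4.91 in PGWAT Tbet flox, 5.72, 4.68 and 6.89 in PGWAT control, 4.49, 4.41 and 4.50 in spleen Tbet flox, and 4.35, 4.45 and 4.45 in spleen control. It was above background on 1 of 3 PGWAT Tbet flox arrays, on 2 of 3 PGWAT control arrays and on no spleen array. PGWAT control 3 was the highest array and PGWAT control 1 the next.

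Cidec encodes a protein that fuses lipid droplets into the single large droplet of white fat cells. Its probe (ILMN_1222679) had log2 intensities of 7.37, 5.56 and 4.38 in PGWAT Tbet flox, 6.11, 5.34 and 4.34 in PGWAT control, 4.37, 4.35 and 4.28 in spleen Tbet flox, and 4.28, 4.25 and 4.42 in spleen control. Here PGWAT Tbet flox 1 was highest, and the third array of each PGWAT group lay within the background, on PGWAT control 3 at a detection p-value of 0.8. PGWAT control 3, the highest array for Adipoq, was thus at background for Cidec. Above background on at least 3 PGWAT arrays and on no spleen array were Lep, Adipoq and Cidec, 3 of the 13 probes, against 2.49% of all probes.

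**Figure D2:**
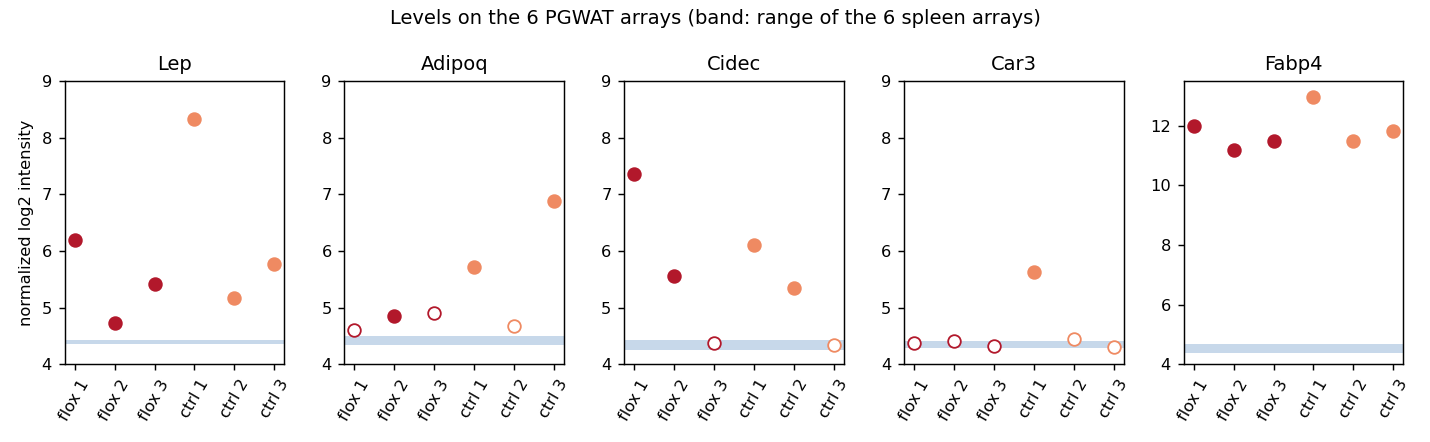
Normalized log2 intensity of Lep, Adipoq, Cidec, Car3 and, for comparison, Fabp4 on the 6 PGWAT arrays (flox, Tbet flox; ctrl, control), with open points where the detection p-value was 0.05 or higher and a band for the range of the 6 spleen arrays; the Fabp4 panel has a wider axis. Lep and Car3 peak on PGWAT control 1, Adipoq on PGWAT control 3 and Cidec on PGWAT Tbet flox 1. Fabp4 and Lep are above the spleen band on all 6, as is Adipoq, with some of its points open.

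No shared order of the 3 members was seen over the PGWAT arrays, but values at background have no order. Adipoq was above background on 1 PGWAT Tbet flox and 2 PGWAT control arrays, and Cidec on 2 of each. Each pair below includes Adipoq or Cidec and so partly ranks background values, and no conclusion is drawn from it. Over these 6 arrays, Lep and Adipoq had Pearson r = 0.319 and Spearman rho = 0.257 (exact permutation p = 0.504 and 0.658). Lep and Cidec had r = 0.383 and rho = 0.371 (exact permutation p = 0.429 and 0.497). Adipoq and Cidec had r = -0.469 and rho = -0.6 (exact permutation p = 0.357 and 0.242). Adjusted over the 3 pairs, the exact permutation p of every pair was 0.504 for r and 0.658 for rho. Without the 2 arrays farthest from the median of the first gene of each pair, r was 0.141, 0.637 and -0.825, each over 4 arrays.

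Lipe encodes hormone-sensitive lipase, which releases fatty acids from stored fat. Of its 3 probes, 2 were above background on more spleen than PGWAT arrays, at levels near background. Lipe probe 1 (ILMN_2552000) had log2 intensities of 4.36, 4.73 and 4.33 in PGWAT Tbet flox, 4.37, 4.36 and 4.33 in PGWAT control, 4.95, 4.84 and 4.75 in spleen Tbet flox, and 5.04, 5.39 and 4.68 in spleen control. It was above background on 1 of 6 PGWAT arrays and on 4 of 6 spleen arrays. Lipe probe 2 (ILMN_3111326) was above background on no PGWAT array and on 3 spleen arrays, with its highest level, 5.39, on spleen control 2. Lipe probe 3 (ILMN_2742636) was above background on PGWAT control 1, PGWAT control 2 and spleen Tbet flox 2, at 5.14 or lower. The 3 probes are annotated to different transcripts and disagreed on the tissue in which Lipe was above background. A detection p-value under 0.01 was reached on 1 array each by probes 1 and 2 and on 0 by probe 3. The dimmest signal above background was 4.71 to 5.18 on PGWAT arrays and 4.71 to 4.89 on spleen arrays. A level counted as above background in spleen could thus count as background in PGWAT, and no Lipe difference between tissues passed.

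The other members stayed at background or nearly so, on 7 probes. Car3, the gene of a carbonic anhydrase abundant in mouse fat, was above background on PGWAT control 1 alone, at 5.62 with a detection p-value of 0.00321, and its other 11 arrays lay between 4.29 and 4.44. Retn, the 2 probes of Plin1 (perilipin, the coat of the lipid droplet), the 2 probes of Thrsp (a nuclear protein of fat synthesis) and Slc2a4 (the insulin-regulated glucose transporter) were above background on 0 of 12 arrays. Their lowest detection p-values were 0.105 for Retn, 0.127 and 0.374 for Plin1, 0.0673 and 0.128 for Thrsp and 0.106 for Slc2a4. In all, 1 of the 84 values of these 7 probes was above background, and 44.7% of all probes on the array were above background on at most 1 array (35.4% on none). At this signal their presence was not detectable, which does not show that it was absent.

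In control mice, Lep and Adipoq were higher in PGWAT than in spleen Tregs, and in Tbet flox mice no member passed. Levels are given as mean ± SD of 3 arrays, and differences in log2 units are followed by the standard error. Lep averaged 6.42 ± 1.67 in PGWAT control and 4.39 ± 0.04 in spleen control, a difference of 2.04 ± 0.49 (limma adjusted p = 0.0147). Because Lep was below background on all spleen control arrays, the fold is a bound. It was set on each spleen array against its dimmest signal above background (or against Lep itself if brighter). By the means of these arrays, Lep was at least 3.09-fold higher. Each such bound allows for undetected spleen values only, not for the spread among arrays, and PGWAT means can include arrays at background. The confidence interval of the Lep difference, 0.97 to 3.10, starts below its bound of 1.63 log2 units. Adipoq averaged 5.77 ± 1.10 in PGWAT control and 4.41 ± 0.06 in spleen control, a difference of 1.35 ± 0.36 (limma adjusted p = 0.0242), at least 1.96-fold higher with 2 of 3 PGWAT control arrays measuring it. These were 2 of 6 tested probes, against 13.8% of all 22833 tested probes called (6.13% higher and 7.66% lower in PGWAT), and the same 2 were the only ones of the 6 with an unadjusted p under 0.05 (27.8% of all tested probes). Lep, Adipoq and Cidec were above background on no spleen array and so passed the filter through PGWAT arrays alone. The filter thus favoured a higher level in PGWAT for these probes, and no conclusion is drawn from the count. Cidec did not pass, with a difference of 0.95 ± 0.48 (limma adjusted p = 0.225, at least 1.38-fold), nor did the Lipe probes, with differences of -0.68, -0.40 and 0.35 (adjusted p of 0.259 to 0.599). The arrays of the tissues did not overlap for Lep and Adipoq, with PGWAT above (12.8% of tested probes), and for Lipe probe 1, with PGWAT below (22.9% of tested probes). Adipoq on PGWAT control 2 and Lipe probe 1 on spleen control 3 were at background, so nothing is read from these ranks.

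The calls of Lep and Adipoq in control mice rested on single arrays and on the weighting. Without PGWAT control 1 the Lep difference was 1.08 (limma adjusted p = 0.105) and that of Adipoq 1.37 (adjusted p = 0.0779), and without PGWAT control 3 the Adipoq difference was 0.79 (adjusted p = 0.192). With equal weights for all arrays in place of a weight for each tissue, the limma adjusted p was 0.0625 for Lep and 0.0564 for Adipoq, and in a fit of the control arrays alone 0.17 and 0.179. With no background correction the differences were smaller, at 0.98 for Lep and 0.56 for Adipoq (limma adjusted p = 0.0412 and 0.0433), and with the authors' processed values 0.99 and 0.57 (0.0404 and 0.043). These are under the printed bounds, which hold for the group means on the background-corrected scale. Each tissue lay on 1 chip of its own, so tissue and chip cannot be told apart.

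In Tbet flox mice, Lep averaged 5.45 ± 0.74 in PGWAT and 4.41 ± 0.03 in spleen, a difference of 1.03 ± 0.49 (limma adjusted p = 0.224, at least 1.62-fold). Cidec averaged 5.77 ± 1.50 in PGWAT and 4.33 ± 0.05 in spleen, a difference of 1.44 ± 0.48 (limma adjusted p = 0.0828, at least 2.02-fold). It was the only one of the 6 tested probes with an unadjusted p under 0.05, against 23.8% of all tested probes with such a p. Adipoq averaged 4.79 ± 0.16 in PGWAT and 4.47 ± 0.05 in spleen, a difference of 0.32 ± 0.36 (limma adjusted p = 0.651, at least 1.03-fold by the means). Its PGWAT mean included 1 array above background. The bounds again leave out the spread among arrays. The confidence intervals were -0.03 to 2.09 for Lep, 0.40 to 2.47 for Cidec and -0.46 to 1.10 for Adipoq. Those of Lep and Adipoq thus include no difference between tissues. The Lipe probes differed by -0.37, -0.09 and -0.18 (limma adjusted p of 0.602 to 0.929). None of the 6 probes was called by limma, against 8.54% of all tested probes (3.88% higher and 4.66% lower in PGWAT). By rank, PGWAT lay above spleen for Lep, Adipoq and Cidec (13.8% of tested probes) and below it for Lipe probe 1 (23.8%). Lep, Adipoq and Cidec passed the filter through PGWAT arrays alone, which favours that direction. Only for Lep were all 3 PGWAT arrays above background, and values at background have no order, so nothing is read from the ranks of the others. The Cidec difference rested on single arrays: it was 0.64 (limma adjusted p = 0.536) without PGWAT Tbet flox 1, the array with its highest level, and 2.13 (adjusted p = 0.0317) without PGWAT Tbet flox 3. It was 0.66 (adjusted p = 0.122) with no background correction, under the printed bound.

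**Figure D3:**
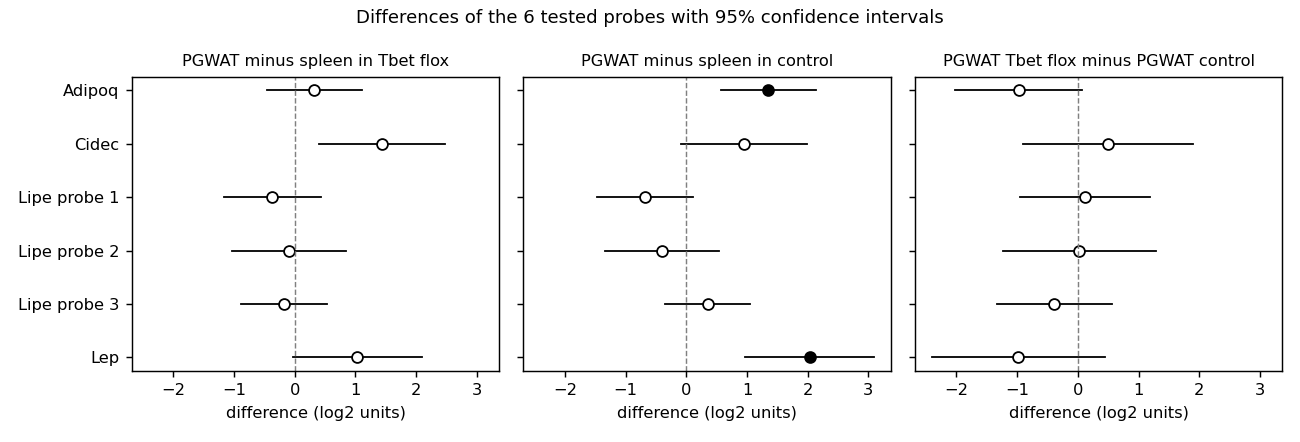
Differences in log2 units for the 6 tested probes with 95% confidence intervals, for PGWAT minus spleen in Tbet flox mice, PGWAT minus spleen in control mice, and Tbet flox minus control in PGWAT, with filled points where the limma adjusted p was under 0.05. Lep and Adipoq in control mice are the only filled points.

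Between genotypes no member differed beyond the spread in PGWAT. Lep measured 0.98 ± 0.67 lower in PGWAT Tbet flox than in PGWAT control, a difference of -0.98 with a 95% interval of -2.41 to 0.46 (limma adjusted p = 0.736). Adipoq likewise differed by -0.98 ± 0.49, with an interval of -2.03 to 0.08 (limma adjusted p = 0.562). Cidec differed by 0.50 ± 0.65, with an interval of -0.89 to 1.90 (limma adjusted p = 0.904). The groups overlapped for all 6 tested probes, while 8.28% of all tested probes lay wholly above and 5.94% wholly below in Tbet flox. Of the 6, none was called by limma and none had an unadjusted p under 0.05, against 0.166% of all tested probes called and 9.54% with such a p. In the same comparison all 10 macrophage, all 7 endothelial and 5 of 6 stromal markers measured lower in PGWAT Tbet flox and all 10 T cell genes higher. None was called by limma, with 6, 2, 2 and 4 at an unadjusted p under 0.05, and their part in the differences of the members was not tested. The differences rested on single arrays. That of Lep was -0.03 without PGWAT control 1 and -1.60 without PGWAT control 2, that of Adipoq -0.42 without PGWAT control 3 and -1.52 without PGWAT control 2, and that of Cidec -0.29 without PGWAT Tbet flox 1. The intervals were wide, and that of Cidec holds a rise of 1 log2 unit, while those of Lep and Adipoq hold falls of 2 log2 units.

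In spleen, the 6 tested probes differed between Tbet flox and control by -0.28 to 0.14 log2 units, the groups overlapped for each, and none was called by limma or had an unadjusted p under 0.05 (1.47% of all tested probes called and 17.5% with such a p, with 12.4% wholly above and 10.5% wholly below). Lep, Adipoq and Cidec were below background on all spleen arrays of both genotypes, so no fold is given. The genotype difference in PGWAT minus that in spleen was -1.002 ± 0.70 for Lep, -1.03 ± 0.51 for Adipoq and 0.49 ± 0.68 for Cidec (limma adjusted p = 0.681, 0.522 and 0.88). It was called for none of the 6 probes, with none at an unadjusted p under 0.05, against 0.0526% of all tested probes called and 10.2% with such a p.

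Among other genes that fat cells use, but share with further cell types, 8 or 9 of 18 tested were higher in PGWAT than in spleen Tregs. Of a list of 32 such genes, 30 had a probe and 18 were kept, each by its brightest probe. In Tbet flox mice 8 of the 18 were higher in PGWAT than in spleen (3.88% of all tested probes). None was lower and 10 did not pass, with a median difference of 1.46 against -0.08 over all tested probes. In control mice 9 were higher (6.13% of all tested probes), none was lower and 9 did not pass, with a median of 1.49 against -0.13. Fabp4, Mgll, Dgat2, Agpat2, Pck1 and Scd1 were above background on no spleen array and passed the filter through PGWAT arrays alone. Cd36, Dgat1 and Elovl6 were above background on too few spleen arrays to pass the filter without PGWAT arrays. Among the genes called higher, only Pparg, Lpl and, in control mice, Aqp7 met the filter on spleen arrays alone. The direction of these counts and medians was thus partly set by the filter. Fabp4, a fatty acid carrier of fat cells that macrophages and endothelium also make, was higher by 7.10 in Tbet flox (limma adjusted p = 1.37e-07) and by 7.54 in control (7.01e-08), at least 112-fold and 158-fold. Cd36, a fatty acid receptor, was higher by 6.31 in Tbet flox (limma adjusted p = 5.31e-07, at least 65.7-fold) and by 6.43 in control (3.25e-07). Lpl, the lipase that frees fatty acids from lipoproteins, was higher by 4.03 in Tbet flox (limma adjusted p = 0.00104) and by 4.44 in control (0.000336), although another Lpl probe differed by only 0.70 and 0.55 and did not pass.

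Dgat1, which makes triglyceride, was higher by 3.89 in Tbet flox mice (limma adjusted p = 7.05e-05) and by 2.76 in control mice (0.000587, at least 6.66-fold). Scd1, a fatty acid desaturase, was higher by 3.77 (limma adjusted p = 4.85e-05) and 4.24 (1.06e-05), at least 11.2-fold and 14.4-fold. Between genotypes in PGWAT none of the 18 passed by limma, and 1 had an unadjusted p under 0.05 (0.166% of all tested probes called and 9.54% with such a p). The smallest p belonged to Elovl6, a fatty acid elongase that measured 6.30 ± 0.57 in Tbet flox and 4.46 ± 0.14 in control, a difference of 1.85 ± 0.48 (limma adjusted p = 0.205). This probe was above background on 3 PGWAT Tbet flox and 0 PGWAT control arrays, so its control level is background. A second Elovl6 probe differed by only 0.05 (limma adjusted p = 0.994), so the probes disagreed. That second probe was itself near background, at 4.89 in Tbet flox and 4.84 in control. The next belonged to Mgll, a lipase of monoglycerides that measured 6.00 ± 0.83 in Tbet flox and 7.19 ± 1.19 in control, a difference of -1.18 ± 0.57 (limma adjusted p = 0.542), and its second probe differed by -1.24. Between genotypes in spleen none of the 18 passed by limma either, and 2 had an unadjusted p under 0.05 (1.47% of all tested probes called and 17.5% with such a p). Of the 12 genes with a probe that were not kept, Plin4 coats lipid droplets, Fasn makes fatty acids, Cebpa drives fat cell development, and Cidea and Ucp1 are known from brown fat.

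**Figure D4:**
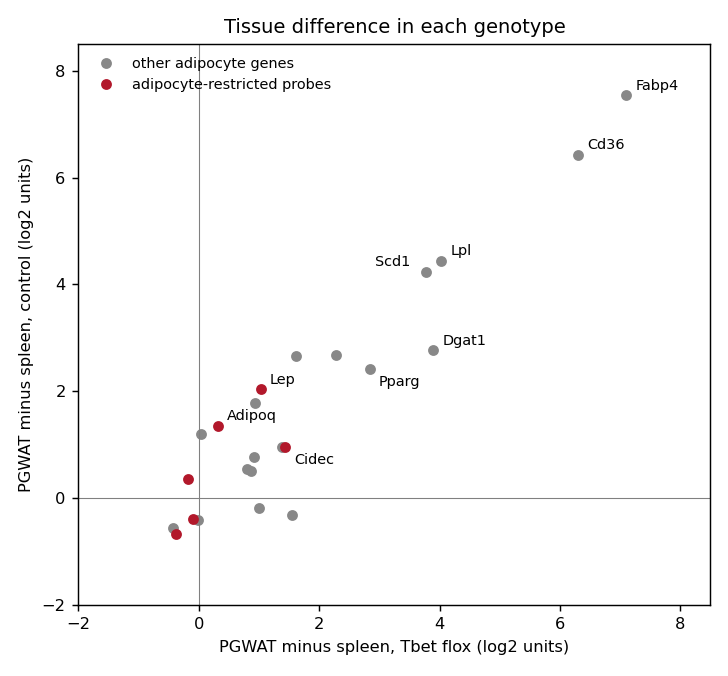
Difference between PGWAT and spleen in log2 units in Tbet flox mice (horizontal axis) and in control mice (vertical axis) for the 18 other adipocyte genes and the 6 tested probes of adipocyte-restricted genes. Fabp4 and Cd36 lie above 6 on both axes, and no adipocyte-restricted probe lies above 2.04 on either.

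Markers of other cells also differed between arrays. All 10 tested T cell and Treg genes, Foxp3 among them, were above background on every array, and their summed intensity was 8598 to 9757 in PGWAT Tbet flox, 3555 to 6654 in PGWAT control, 8576 to 9399 in spleen Tbet flox and 8186 to 8928 in spleen control. PGWAT control 1, the highest array for Lep and the only one for Car3, had the lowest T cell sum, 3555. It also had the highest sums of 7 endothelial markers (6222, against 718.6 to 1489 on the other PGWAT arrays), of 6 stromal markers (8571, against 1804 to 4669) and of the 18 other adipocyte genes (19050, against 7939 to 12950). By the mean log2 intensity of those 18 genes, PGWAT Tbet flox 1 was highest, at 8.164 against 8.13 on PGWAT control 1. The sum of 10 macrophage markers was 1477 to 9505 in PGWAT Tbet flox, 14370 to 16000 in PGWAT control, 1003 to 1308 in spleen Tbet flox and 1308 to 1979 in spleen control. No stromal marker was above background on any spleen array. The stromal markers thus passed the filter through PGWAT arrays alone, which favours a higher level in PGWAT. In control mice 10 of 10 macrophage, 5 of 6 stromal and 5 of 7 endothelial markers were higher in PGWAT, and 3 of 10 T cell genes (Cd3g, Cd4 and Zap70) were lower. Of all tested probes, 6.13% were called higher and 7.66% lower there. In Tbet flox mice 3 of 10 macrophage, 5 of 6 stromal and 2 of 7 endothelial markers were higher in PGWAT, and Ctla4 was the only T cell gene called, also higher. The shares of all tested probes were 3.88% higher and 4.66% lower. The part of these cells in the levels of Lep, Adipoq and Cidec was not tested.

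The named genes whose pattern over the 6 PGWAT arrays was most like the mean of the 6 tested probes were Ung (Pearson r = 0.987), Btrc (0.985), Gstm2 (0.982), Scd1 (0.982) and Cfb (0.98), taken as the highest of 18401 probes, so no p-value is given. Ung ranged from 4.389 to 5.505 and exceeded the dimmest signal above background on PGWAT control 1 alone, so its match is mostly among background values. The mean also holds the Lipe probes, of which probe 2 was above background on no PGWAT array. The mean of the 6 probes, centred on its PGWAT average, was 0.22, -0.22 and -0.42 in Tbet flox and 0.64, -0.19 and -0.03 in control. Scd1 followed it with log2 intensities of 9.07, 7.96 and 7.70 in PGWAT Tbet flox and 9.74, 8.07 and 8.13 in PGWAT control. Both were highest on PGWAT control 1, lowest on PGWAT Tbet flox 3, and next highest on PGWAT Tbet flox 1. Cfb, a factor of the alternative complement pathway that adipsin cleaves, ranged from 6.52 to 9.07 with its highest level on PGWAT control 1.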

How the data were processed

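The deposited table holds 1 bead-averaged signal intensity per probe and array, not normalized, with a detection p-value for each, per the file headers, made with GenomeStudio per the submitters' processing notes (version not given in the sources used here). Per the labels, the RNA input was 5 pg, amplified and labelled with NuGen kits. A second table deposited by the authors holds processed intensities and served as an alternative.

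Signals were background corrected and quantile normalized by the neqc function (limma 3.58.1, R 4.3.3, offset 16). Probes detected at p under 0.05 on at least 3 arrays were kept (22833 of 45281), and each probe was tested on its own. Of all probes, 34885 carried 1 gene symbol, 18 several and 10378 none, and updating symbols by Entrez ID changed 0. All 12 arrays entered 1 linear model of the 4 group means (8 residual degrees of freedom) with a weight for each tissue, 0.312 for PGWAT and 3.21 for spleen, because the median SD within a group was 0.501 to 0.569 in PGWAT and 0.151 to 0.19 in spleen. P-values were adjusted over all kept probes by Benjamini and Hochberg, with a threshold of 0.05. The fit was tested on simulated data. Each array had 11252 to 17090 probes with a detection p-value under 0.01. No pair of arrays correlated above 0.989. The number of arrays limits the precision.

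The members and lists were chosen with earlier results of these data known. All members are named, with, from the other lists, up to 4 genes past the threshold per comparison or the 2 with the smallest p, and the 5 genes of most similar pattern. Genes named outside this rule were chosen after their values were seen. Lists of mesothelial (1 kept gene), B cell (1) and red cell (2) markers had no member called in any comparison. The replicate numbers were not taken as pairs, since deviations of same-numbered arrays correlated at -0.192 to 0.0669 within a tissue and at -0.0437 to 0.00826 between tissues of 1 genotype.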

Additional observations from a re-analysis of the deposited data

How the results depend on the processing

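Filters, fits and scalings were varied 1 at a time, with the probes and normalized values kept as they were when arrays were left out. Probes near background and 3 arrays a group limit all results on these genes. Of the 6 tested probes, 0 were called for genotype in PGWAT, in spleen, or for the genotype effect between tissues under every alternative. For PGWAT against spleen in control mice 2 were called, but 1 with a detection p under 0.01 on 3 arrays (which drops Adipoq), 0 with equal weights, 0 with the groups compared alone and 0 without PGWAT control 1 and PGWAT Tbet flox 3, arrays doubted after seeing the data (Lep 1.08 and Adipoq 1.37, adjusted p = 0.128 and 0.0969). Leaving out 1 array gave 0 to 2. In Tbet flox mice 0 were called, but 1 (Cidec) when arrays were scaled to one median (1.62, adjusted p = 0.0422), 1 with the replicate number as a block (adjusted p = 0.0322), 1 without the 2 doubted arrays, and 0 to 1 leaving out 1 array. With no background correction the genotype differences in PGWAT were -0.56 for Lep and -0.40 for Adipoq. The Lipe probe 2 difference in Tbet flox mice turned from -0.09 to 0.028 without the doubted arrays, to 0.028 without PGWAT Tbet flox 3, to 0.02 without spleen Tbet flox 1, and ranged from -0.19 to 0.028 leaving out 1 array. The Cidec genotype difference ranged from -0.29 to 1.2 in PGWAT and from -0.31 to 1.18 against spleen.

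Counts over all probes moved more. For genotype in PGWAT 38 were called, against 24 scaled to one median, 71 without a filter, 16 with the stricter filter, 819 with equal weights, 0 for the PGWAT arrays alone, 2 with the replicate block, 2 without the doubted arrays, and 6 to 79 leaving out 1 array. In spleen 336 were called, against 686 with no background correction, 115 scaled to one median, 674 with the authors' processed values, 58 without a filter, 0 with equal weights, 16 for the spleen arrays alone, 12 with the replicate block, and 8 to 515 leaving out 1 array (8, 123 and 29 without spleen Tbet flox 1, 2 and 3, 27 and 515 without spleen control 1 and 3). For the genotype effect between tissues 12 were called, against 24 with no background correction, 7 scaled, 24 with the authors' values, 44 without a filter, 7 with the stricter filter, 27 with equal weights, 0 with the replicate block, 1 without the doubted arrays and 2 to 69 leaving out 1 array. Between tissues 1949 were called in Tbet flox and 3148 in control mice, against 1096 and 1928 without the doubted arrays, and 746 to 2258 and 2038 to 3060 leaving out 1 array. Scaling to one median moved the median difference between tissues from -0.08 to -0.31 in Tbet flox and from -0.13 to -0.23 in control mice. The share of calls that were higher then went from 45.5% to 22.8% in Tbet flox mice and from 52.6% to 33.3% for genotype in PGWAT. The causes were not tested. Of the other adipocyte genes, 6 to 10 were called in Tbet flox and 7 to 9 in control mice leaving out 1 array.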
